A study of Mus musculus with 8 samples.

Results

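The Notch pathway was examined through 10 genes in ATCL7, an immortalized male mouse cell line derived from an adrenocortical tumour. The genes were the receptors Notch1, Notch2, Notch3 and Notch4, the ligands Jag1 and Dll1, and the target genes Hes1, Hey1, Heyl and Nrarp. They were matched by symbol to the deposited annotation, and all 10 were found among 20719 genes, each with 1 probe set. Cells were kept for 24 h in medium with 0.025% each of fetal bovine and horse serum and received either 0.5 µM BIO or 0.01% DMSO as vehicle. BIO (6-bromoindirubin-3'-oxime) is an inhibitor of glycogen synthase kinase 3, used to stabilise β-catenin and so to switch on Wnt target genes. Indirubins are also known as ligands of the aryl hydrocarbon receptor. There were 4 BIO and 4 vehicle samples of this single line, joined by their titles into 4 numbered pairs, and 1 Affymetrix array was run for each. Nothing in the labels says whether the pairs came from separate cultures, so the p-values cover only the spread among these samples, part of which may be technical.

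Notch receptors are single-pass membrane proteins that are activated by ligands of the Delta and Jagged families on a neighbouring cell. Binding leads to cleavage by ADAM proteases and then by γ-secretase, and the freed intracellular domain enters the nucleus. There it joins the DNA-binding protein RBPJ and a Mastermind coactivator and turns on genes such as those of the Hes and Hey repressors. In the adrenal gland, DLK1, a ligand-like relative of the Delta proteins, is known from progenitor cells of the capsule and outer cortex.

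Values are log2 expression made by the authors with robust multi-array averaging (RMA), a method that corrects background, gives all arrays the same distribution and summarises the probes of a probe set. Array medians lay between 5.70 and 5.73 log2. Arrays of pairs 1 and 2 stood apart from those of pairs 3 and 4. Deviations from the group means correlated across genes at 0.243 to 0.578 between a vehicle and a BIO array of pairs 1 and 2. The values were 0.277 to 0.617 within pairs 3 and 4, and −0.504 to −0.214 across the sets. Deviations from a group mean cancel out. Positive values within the sets therefore force negative ones across them, which add no separate evidence. Of 11 adrenocortical markers, Cyp11a1, Scarb1, Star, Nr5a1 and Mc2r had vehicle means of 11.84, 10.51, 9.80, 9.30 and 8.73 log2. Inha and Cyp11b1 had means of 7.20 and 6.25. Hsd3b1, Nr0b1, Cyp21a1 and Cyp11b2 had means of 5.68, 4.81, 4.60 and 4.22, below the array medians. Of the 11, 8 fell in BIO and 1, Inha, rose, and their summed linear level was 6316 to 8177 in vehicle and 3968 to 4944 in BIO. The 6 endothelial markers lay between 3.69 and 5.44 log2 on all arrays, and 0 of 6 passed the test. Their summed linear level was 137 to 147 in vehicle and 133 to 151 in BIO. Of the other marker lists, 2 of 6 macrophage markers fell (Cd68 and Cd14, summed level of the list 371 to 402 in vehicle and 287 to 315 in BIO, with Ptprc and Csf1r at vehicle means of 4.56 and 4.39), 1 of 6 fibroblast markers fell (Col1a1, 216 to 240 and 209 to 224) and 0 of 6 chromaffin markers passed (172 to 179 and 166 to 180). The part of the falling markers in the results was not tested.

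BIO lowered 5 of the 10 genes, and 0 rose. The ligand gene Jag1 fell 2.22-fold, the target gene Hes1 1.97-fold, and the receptor genes Notch1, Notch3 and Notch2 fell 1.63-fold, 1.37-fold and 1.19-fold. A gene was called when its adjusted p was under 0.05 in limma, with pairs as blocks and Benjamini-Hochberg adjustment over all 20719 genes. Among all genes 32.7% passed, 17.0% rising and 15.6% falling. All 5 members that fell were among the genes whose mean lay above the median over genes, of which 51.9% passed and 23.9% fell. The 5 members that did not pass, Notch4, Dll1, Hey1, Heyl and Nrarp, were among the dimmer genes, of which 13.4% passed. RMA compresses low signals and no detection call was used here, so a change in a dim gene may be understated. In RNA from whole cultures, fewer expressing cells and less RNA per cell cannot be told apart. The median log2 difference of the 10 was −0.21, against −0.01 for all genes.

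**Figure D1:**
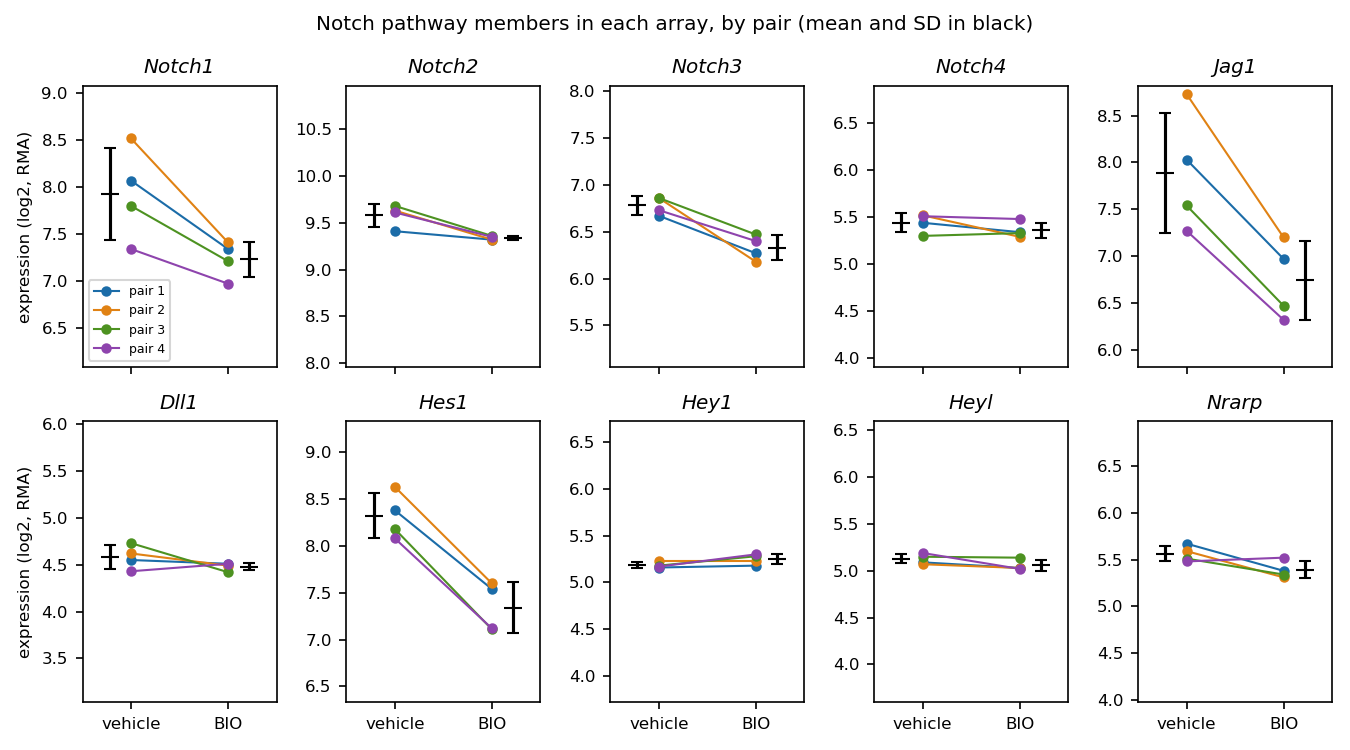
Each panel shows 1 gene, with log2 expression in vehicle and in BIO on the y axis, a line and a colour for each of the 4 pairs, and the mean with its SD in black, and all panels span the same number of log2 units. The lines of Jag1, Hes1, Notch1 and Notch3 fall in 4 of 4 pairs, with Notch1 spanning 7.34 to 8.52 in vehicle and 6.97 to 7.41 in BIO, while those of Hey1 and Heyl move by at most 0.17 in any pair and those of Dll1 and Notch4 by up to −0.32 and −0.23 in 1 pair.

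Of the 4 receptor genes, 3 fell. Notch1 encodes the receptor best known from T cell development and leukaemia. It read 8.07, 8.52, 7.80 and 7.34 log2 in vehicle replicates 1 to 4 and 7.34, 7.41, 7.21 and 6.97 in the BIO replicates. Every pair fell, but the groups overlapped, since BIO replicate 2 read above vehicle replicate 4. The falls in pairs 1 to 4 were −0.74, −1.11, −0.60 and −0.37 log2. The range over arrays was 1.18 log2 in vehicle and 0.43 in BIO. The mean difference was −0.70 ± 0.10 log2 (SE, limma adjusted p = 0.00117).

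Notch3, a receptor of vascular smooth muscle and pericytes, read 6.67, 6.86, 6.86 and 6.73 log2 in vehicle and 6.27, 6.18, 6.47 and 6.40 in BIO. The groups did not overlap, and the difference was −0.45 ± 0.06 log2 (SE, limma adjusted p = 0.000889). Notch2, a widely expressed receptor, read 9.41, 9.63, 9.68 and 9.61 in vehicle and 9.32, 9.32, 9.36 and 9.35 in BIO. These groups did not overlap either, although pair 1 differed by only −0.09 log2, and the difference was −0.25 ± 0.05 (SE, limma adjusted p = 0.00793). Over all members, 4 had groups that did not overlap with BIO lower, and 12.9% of all genes did. In 4 of 4 pairs BIO was lower for 6 members, which include Heyl, and for 23.5% of all genes. Notch4, a receptor known mainly from endothelium, read 5.44, 5.52, 5.30 and 5.51 in vehicle and 5.34, 5.29, 5.33 and 5.48 in BIO. The groups overlapped, and the difference of −0.08 log2 had a 95% interval of −0.21 to 0.04 (adjusted p = 0.294). By the paired t-test of the deposited table, with its p-values adjusted in the same way, the calls of Notch1 (adjusted p = 0.0784), Notch2 (0.0771) and Notch3 (0.0525) were lost, which left 2 of the 10 members called against 19.1% of all genes. In pairs 1 and 2 alone that of Notch2 was lost as well (limma adjusted p = 0.131).

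The start regions of Notch1 and Notch3 are shown because both genes fell and hold more than 1 N box, the letters CACNAG that Hes repressors are known to bind. Notch2, which also fell, held 1 in its own window, at −247. Sequences are from RefSeq on build GRCm38.p6, from 250 bases before to 50 bases after the annotated start, printed 5′ to 3′ on the gene's strand, with every match in capitals. Notch1 lies on the minus strand at chr2:26503773-26504072 and Notch3 on the minus strand at chr17:32166841-32167140.
Notch1: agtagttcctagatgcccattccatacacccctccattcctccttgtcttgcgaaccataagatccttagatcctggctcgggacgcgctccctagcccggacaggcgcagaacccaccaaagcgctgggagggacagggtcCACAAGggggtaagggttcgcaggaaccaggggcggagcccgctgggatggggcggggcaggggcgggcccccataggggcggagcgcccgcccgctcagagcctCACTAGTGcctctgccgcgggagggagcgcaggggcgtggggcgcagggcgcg
Notch3: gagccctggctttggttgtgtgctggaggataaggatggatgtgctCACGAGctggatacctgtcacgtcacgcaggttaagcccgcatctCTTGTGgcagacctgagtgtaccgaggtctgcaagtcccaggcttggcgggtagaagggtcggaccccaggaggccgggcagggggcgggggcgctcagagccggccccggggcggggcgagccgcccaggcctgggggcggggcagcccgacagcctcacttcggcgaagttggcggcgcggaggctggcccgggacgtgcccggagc
Matches were searched on both strands, and Notch1 held 3, of which those starting at −3 and −1 overlap, while Notch3 held 2. A promoter window was matched for 7 of the 10 members, with 8 windows in all, since Dll1 has 2. An N box stood in 5 of the 8, against 42.5% of the 32851 windows in the RefSeq table. The RBPJ core, TGGGAA, stood in 0 of the 8, against 25.6% of all windows. The TCF/LEF core, searched only as CTTTGA, stood in 1, against 16.0%. Hes1, Hey1 and Heyl were not matched.

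Of the ligands, Jag1 fell and Dll1 did not pass. Jag1, which encodes the ligand Jagged1 and has been described as a β-catenin target in other tissues, read 8.03, 8.73, 7.54 and 7.27 log2 in vehicle. In BIO it read 6.97, 7.20, 6.47 and 6.32. The groups did not overlap, but only just, since the values of both groups were high in pair 2 and low in pair 4. The range over vehicle arrays, 1.46 log2, was wider than the mean difference of −1.15 ± 0.09 (SE, limma adjusted p = 3.97e-05). Within the pairs the fall was −1.06, −1.53, −1.08 and −0.95. Without the pair as a block the adjusted p was 0.0214. Jag1 kept its call under all 15 other settings, its adjusted p reaching at most 0.0275.

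The start region of Jag1, on the minus strand at chr2:137116471-137116770, is printed because it held the 1 match to CTTTGA found among the members, in capitals. Other forms of the TCF/LEF core were not searched. The match lies on the other strand, with its leftmost base at position 25 after the start.
Jag1: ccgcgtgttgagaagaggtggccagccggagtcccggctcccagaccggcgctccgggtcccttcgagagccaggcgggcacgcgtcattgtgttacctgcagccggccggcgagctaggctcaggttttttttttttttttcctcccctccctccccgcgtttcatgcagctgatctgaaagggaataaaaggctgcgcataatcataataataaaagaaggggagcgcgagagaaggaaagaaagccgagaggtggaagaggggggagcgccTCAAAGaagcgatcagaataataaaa
A match describes these letters and not a bound site.

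Dll1, which encodes a Delta-like ligand, read 4.55, 4.62, 4.73 and 4.43 log2 in vehicle and 4.51, 4.49, 4.42 and 4.51 in BIO. The groups overlapped, and pair 4 differed in the other direction. The difference was −0.10 log2 with a 95% interval of −0.25 to 0.05 (limma adjusted p = 0.289).

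Of the 4 target genes, only Hes1 passed. Hes1 encodes a basic helix-loop-helix repressor and is induced by Notch in many tissues, and by other signals too. It read 8.38, 8.63, 8.18 and 8.08 log2 in vehicle and 7.54, 7.60, 7.11 and 7.12 in BIO. The groups did not overlap, and the falls in the pairs, −0.84, −1.03, −1.08 and −0.96 log2, were close to each other. The difference of −0.98 ± 0.05 (SE) had an adjusted p of 7.64e-06 in limma, the lowest among the 10 genes, and the call held under all 15 other settings.

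Nrarp encodes a small ankyrin-repeat protein that is induced by Notch and dampens it. It read 5.67, 5.59, 5.51 and 5.48 log2 in vehicle and 5.38, 5.31, 5.34 and 5.52 in BIO. It was lower in pairs 1 to 3 and not in pair 4, and the groups overlapped. The difference was −0.17 log2, with a 95% interval of −0.32 to −0.03 before any adjustment for many genes and an adjusted p of 0.0703 in limma. It passed without pair 4 (−0.24 log2, adjusted p = 0.0151) and in pairs 1 and 2 alone (−0.28, adjusted p = 0.0251).

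The start region of Nrarp, on the plus strand at chr2:25180508-25180807, is shown beside those of the receptors because it also held N boxes, 2 of them and in capitals, in a gene that did not pass.
Nrarp: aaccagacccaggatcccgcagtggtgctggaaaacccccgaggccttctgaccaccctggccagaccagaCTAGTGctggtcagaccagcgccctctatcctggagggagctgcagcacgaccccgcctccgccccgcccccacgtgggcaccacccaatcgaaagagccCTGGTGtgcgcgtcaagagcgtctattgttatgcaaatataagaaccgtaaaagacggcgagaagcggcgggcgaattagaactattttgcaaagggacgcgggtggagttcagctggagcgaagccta
N boxes thus stood in 3 members that fell and in 2 that did not pass, Nrarp and, in 1 of its 2 windows, Dll1. The windows of Jag1, which fell, and of Notch4, which did not pass, held no N box.

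Hey1 and Heyl encode repressors related to the Hes proteins that act in vessels and heart. Hey1 read 5.16, 5.23, 5.18 and 5.17 log2 in vehicle and 5.18, 5.23, 5.28 and 5.30 in BIO, a difference of 0.06 with a 95% interval of −0.05 to 0.17 (limma adjusted p = 0.373). Heyl read 5.09, 5.07, 5.15 and 5.19 in vehicle and 5.03, 5.03, 5.14 and 5.02 in BIO, a difference of −0.07 with an interval of −0.18 to 0.04 (limma adjusted p = 0.312). For both, the groups overlapped. Both genes lay below the array medians and no detection call was used. The narrow intervals therefore cannot show whether these transcripts changed as Hes1 did.

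**Figure D2:**
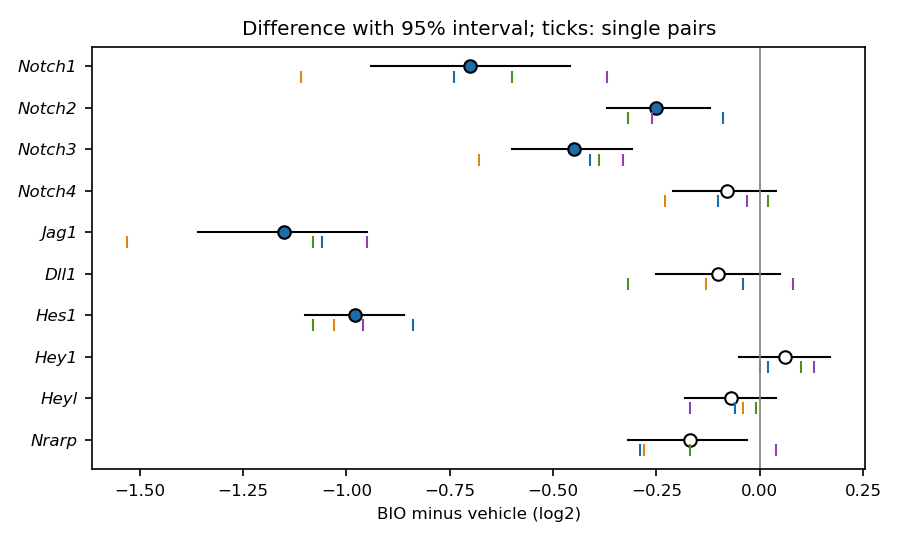
Points give the difference of BIO minus vehicle in log2 for each member, filled where it passed, bars give the 95% interval of the limma fit, and coloured ticks give pairs 1 to 4 in the colours blue, orange, green and purple. Jag1, Hes1, Notch1, Notch3 and Notch2 lie to the left of 0, and the intervals of Notch4, Dll1, Hey1 and Heyl include 0.

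The other genes of the pathway were described with 7 lists of 58 genes, all measured. Of these, 19 fell, 8 rose and 31 did not pass, with a median difference of −0.05 log2. Above the median over genes by mean value lay 45 of the 58, of which 25 (55.6%) passed and 17 (37.8%) fell, against 51.9% and 23.9% of all genes in that range. The share that passed was close to that of all genes in the range, and no test of either share was made.

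Among 6 other ligands and ligand-like proteins, 3 fell and 0 rose. Dner, a transmembrane protein with Delta-like repeats known from neurons, fell most of all 68 pathway genes examined, 2.82-fold. It read 7.42, 7.32, 6.53 and 6.53 log2 in vehicle and 5.41, 5.33, 5.55 and 5.52 in BIO. The vehicle values of pairs 1 and 2 were higher than those of pairs 3 and 4, whereas the BIO values lay together. The fall was −2.01, −1.99, −0.98 and −1.01 in the 4 pairs. All BIO values lay below the array medians, where a low signal may be compressed, so these falls may be understated. Its mean difference was −1.50 ± 0.18 log2 (SE, limma adjusted p = 0.000401).

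Dlk1, the progenitor marker of the adrenal gland, read 7.97, 7.82, 7.11 and 6.91 log2 in vehicle and 7.27, 7.28, 6.78 and 6.76 in BIO. Both groups were higher in pairs 1 and 2 and they overlapped, but each pair fell, and the difference was −0.43 ± 0.08 (SE, limma adjusted p = 0.00499). Dlk2, a paralogue of Dlk1, differed by −0.26 ± 0.08 (adjusted p = 0.0352). Jag2 (−0.15, adjusted p = 0.069) and Dll4, the endothelial Delta ligand (0.02, adjusted p = 0.923), did not pass. The call of Dlk1 was lost without the pair as a block (adjusted p = 0.249), in pairs 3 and 4 alone (0.0525) and by the deposited t-test (0.116). Under the latter Dner (adjusted p = 0.0624) and Dlk2 (0.219) were lost too, and Dlk2 was also lost without the block (0.0583) and without pair 1, 2 or 4 (0.0573, 0.127 and 0.132).

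Genes that act on the ligands and on the receptors' sugars went both ways. Mib2, a ubiquitin ligase that drives ligand endocytosis, rose 1.62-fold, from 7.52, 7.35, 7.39 and 7.49 log2 in vehicle to 8.19, 8.25, 8.09 and 8.03 in BIO. The groups did not overlap, and the difference was 0.70 ± 0.06 (SE, limma adjusted p = 7.61e-05). Neurl1a, another such ligase, fell by 0.24 ± 0.07 log2 (adjusted p = 0.0276), and the other 2 of the 4 ligases listed did not pass. The call of Neurl1a was lost without the pair as a block (adjusted p = 0.0733), by the deposited t-test (0.184), in pairs 1 and 2 alone (0.463) and without pair 2, 3 or 4 (0.0547, 0.124 and 0.11).

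Fringe enzymes extend O-fucose on the receptors and so shift their preference between Delta and Jagged ligands. Lfng, which encodes lunatic fringe, read 7.30, 7.54, 6.79 and 6.96 log2 in vehicle and 6.59, 6.49, 6.26 and 6.59 in BIO. The groups did not overlap, the pairs fell by −0.72, −1.05, −0.53 and −0.37 log2, and the difference was −0.67 ± 0.10 (SE, limma adjusted p = 0.00114). Rfng, which encodes radical fringe, rose 1.28-fold (0.36 ± 0.05, adjusted p = 0.00102), and Pofut1, the enzyme that adds the O-fucose, rose 1.14-fold (0.18 ± 0.04, adjusted p = 0.0115). In all, 1 of the 5 genes of this list fell and 2 rose. The call of Lfng was lost by the deposited t-test (adjusted p = 0.0763), and that of Pofut1 in pairs 1 and 2 alone (0.0948) and in pairs 3 and 4 alone (0.0998).

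The start region of Lfng, on the plus strand at chr5:140607091-140607390, is printed as that of a named pathway gene that fell and holds the RBPJ core. In capitals are 2 RBPJ cores, whose leftmost bases are at −135 on the other strand and at −108 on the gene's strand, and 1 N box at −181.
Lfng: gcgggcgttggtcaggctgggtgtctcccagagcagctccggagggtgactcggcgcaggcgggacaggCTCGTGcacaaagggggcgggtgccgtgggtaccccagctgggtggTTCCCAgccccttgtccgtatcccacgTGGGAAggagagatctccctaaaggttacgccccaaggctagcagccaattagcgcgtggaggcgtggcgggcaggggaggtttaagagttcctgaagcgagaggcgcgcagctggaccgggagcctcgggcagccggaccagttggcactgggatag
Of all RefSeq windows searched, 25.6% hold at least 1 RBPJ core. Among the other listed pathway genes, windows of Rbpj, Maml2 and Maml3, which fell, held it as well. So did those of Aph1a and Kat2a, which rose. It also stood in windows of Poglut1, Psen2, Psenen, Nedd4, Dtx2, Aak1, Spen, Ncor1, Hes5, Hes7, Hey2 and Helt, which did not pass.

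Of 10 genes of receptor cleavage, 4 fell and 2 rose. Furin, the protease that cuts the receptor on its way to the cell surface, fell 1.40-fold (−0.48 ± 0.05 log2, SE, limma adjusted p = 0.000222). Adam10, the protease that sheds the ligand-bound ectodomain, fell 1.17-fold (−0.23 ± 0.05, limma adjusted p = 0.0124). The groups of Furin did not overlap, while those of Adam10 did. The call of Adam10 was lost without the pair as a block (adjusted p = 0.146), without pair 3 (0.066), in pairs 1 and 2 alone (0.24) and by the deposited t-test (0.0953).

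Of 11 genes of receptor trafficking and turnover, 3 fell and 2 rose. Numbl and Numb, adaptors known to inhibit Notch, fell by 0.37 ± 0.04 and 0.29 ± 0.05 log2 (SE, limma adjusted p = 0.000318 and 0.00168), in 4 of 4 pairs and with no overlap. The Deltex genes Dtx4 and Dtx3, which encode ubiquitin ligases, rose by 0.45 ± 0.05 and 0.42 ± 0.09 (adjusted p = 0.0003 and 0.00659). Another Deltex gene, Dtx3l, named after its value was seen, fell by 0.33 ± 0.07 (adjusted p = 0.00503), but not without the pair as a block (0.251) or by the deposited t-test (0.0941), and Dtx1 and Dtx2 did not pass. Pair 1 of Dtx3 differed by only 0.04 log2, and its call was lost by the deposited t-test (adjusted p = 0.131) and in pairs 1 and 2 alone (0.101).

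In the nuclear complex 6 of 15 genes fell and 1 rose. Maml2, a Mastermind coactivator, fell 1.98-fold. It read 9.02, 9.13, 8.96 and 8.77 log2 in vehicle and 7.96, 7.91, 8.07 and 7.98 in BIO. The groups lay far apart relative to their spread, and the difference was −0.99 ± 0.07 (SE, limma adjusted p = 2.84e-05). These values are from the brighter of 2 probe sets of Maml2. The mean of both differed by −0.80 (limma adjusted p = 7.68e-05). Maml3 fell by 0.42 ± 0.05 log2 (adjusted p = 0.000376), and Kat2b, a histone acetyltransferase recruited by the complex, by 0.46 ± 0.04 (adjusted p = 0.00012). Maml1 differed by 0.11 ± 0.04 and did not pass (adjusted p = 0.0958), except with the dimmer 50% of genes left out (0.0394).

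Rbpj, the DNA-binding partner of the pathway, read 10.03, 10.11, 9.81 and 9.81 log2 in vehicle and 9.77, 9.81, 9.66 and 9.51 in BIO. It fell in 4 of 4 pairs, by 0.25 ± 0.05 log2 on average (SE, limma adjusted p = 0.00406). This call was lost without the pair as a block (adjusted p = 0.0675) and in pairs 3 and 4 alone (0.0594). Of 7 other Hes and Hey factors 1 fell, Hes6 by 0.16 ± 0.05 log2, at an adjusted p of 0.0492 that lies just under the threshold. It did not pass without the block (0.0905), by the deposited t-test (0.153), without any 1 of the 4 pairs (0.0645 to 0.18) or in either set of 2 pairs (0.0994 and 0.265). Hes5, a Notch target of the nervous system, and Hey2 did not pass, with differences of −0.10 (95% interval −0.27 to 0.06) and 0.00 log2 (−0.12 to 0.11).

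**Figure D3:**
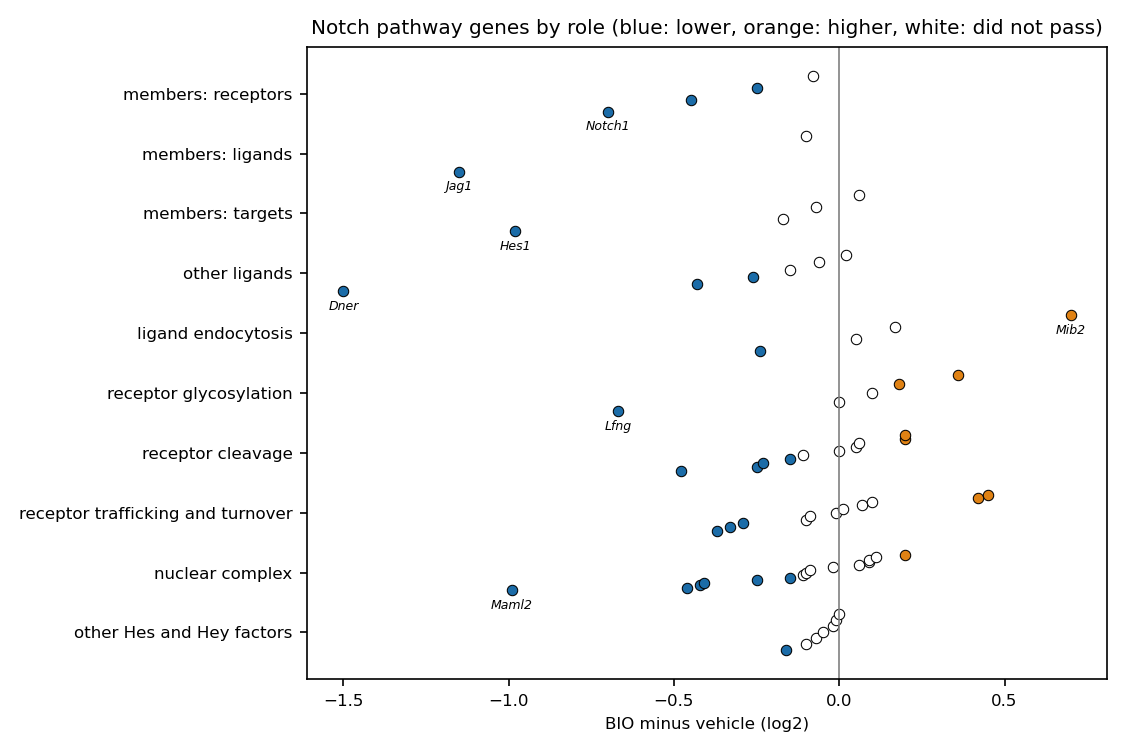
Each point is 1 of the 10 members or of the 58 other pathway genes, placed by its difference of BIO minus vehicle in log2 and sorted into rows by role, with blue for genes that fell, orange for genes that rose and white for those that did not pass, and height within a role only separates the points. Dner (−1.50), Jag1 (−1.15), Maml2 (−0.99) and Hes1 (−0.98) lie farthest to the left, and Mib2 (0.70) farthest to the right.

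The size of the fall differed between pairs for some of these genes. For Notch1, Jag1, Notch3, Lfng and Maml2 it was widest in pair 2 and narrowest in pair 4. For Dner, whose BIO values were dim in every pair, it was near 2 log2 units in pairs 1 and 2 and near 1 in pairs 3 and 4. For Hes1 it ranged over pairs only from −1.08 to −0.84. With pairs 1 and 2 alone, and with pairs 3 and 4 alone, 5 members fell and 0 rose in each, against 10.1% and 12.3% of all genes that fell. Those 5 were not the same genes in both, since Nrarp took the place of Notch2 in pairs 1 and 2. The sources used here do not say whether the pairs differed in culture, extraction or scan, and the part of such steps in these differences was not tested.

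**Figure D4:**
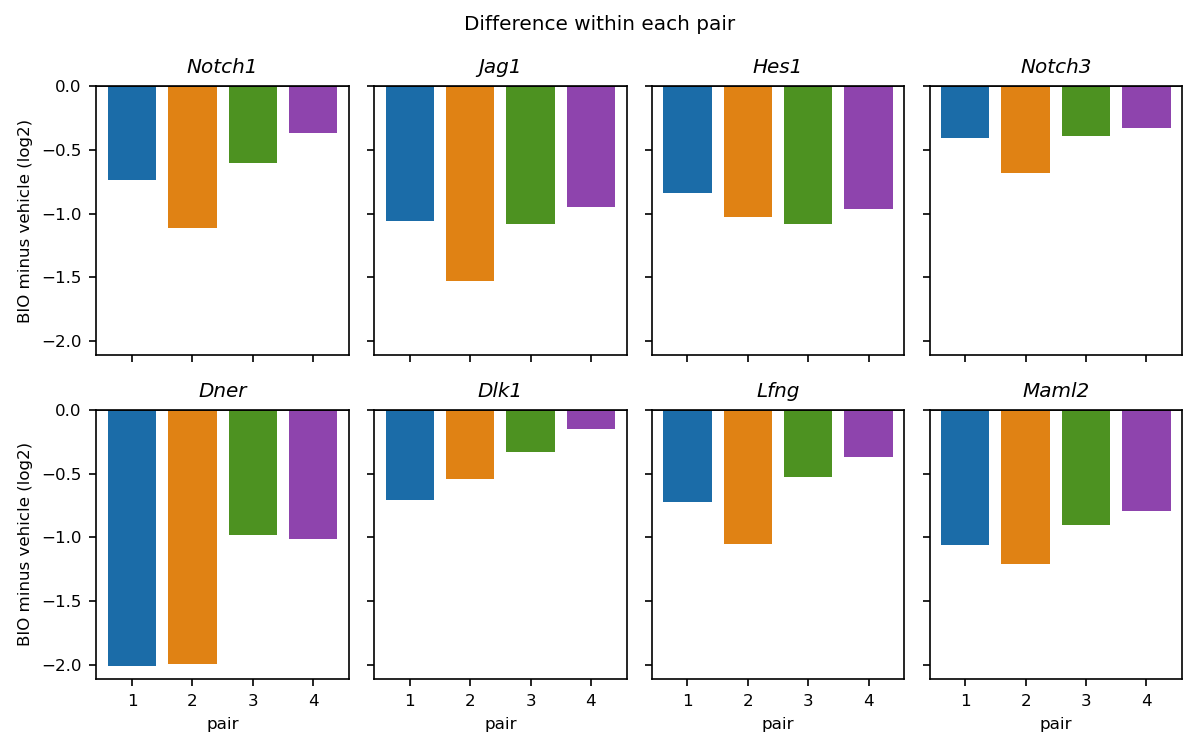
Bars give the difference of BIO minus vehicle in log2 within each of the 4 pairs for 8 genes, all starting at 0. Dner stands at −2.01 and −1.99 in pairs 1 and 2 and at −0.98 and −1.01 in pairs 3 and 4, while the bars of Hes1 are nearly equal.

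The genes whose values ran most like those of the members were named by Pearson's r over the 8 arrays, which share the treatment and the pairs, so r is a description only. Nearest to Jag1, the member with the largest difference, were C1qtnf3 (r = 0.996), Thg1l (0.993), Unc5c (0.988), Fam198b (0.987) and Adam23 (0.986). Of these, C1qtnf3, which encodes a secreted protein of the C1q/TNF family, fell by 2.10 ± 0.16 log2 (SE, limma adjusted p = 4.21e-05), and Thg1l by 0.32 ± 0.05 (adjusted p = 0.00109). Nearest to Notch1, the receptor with the largest difference, were Cyth3 (r = 0.985), Psmb10 (0.984), Zswim6 (0.982), Irf1 (0.982) and Pik3ap1 (0.981). Irf1, a transcription factor of the interferon response, fell by 0.18 ± 0.05 (adjusted p = 0.0183), and Cyth3 did not pass (−0.13 ± 0.05, adjusted p = 0.0573).

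The authors' deposited table also gives folds and unadjusted p-values of another experiment, described there as 3 Wnt against 4 SF1 samples, whose material the sources used here do not describe. There, 12.9% of the genes had a p under 0.05, and 0 did after Benjamini-Hochberg adjustment. Of the 10 members 1 had a p under 0.05 in the authors' deposited table, Dll1, with a ratio of Wnt over SF1 of 0.814 (p = 0.0229). Notch1 had a ratio of 0.452 (p = 0.127) and Hes1 one of 0.605 (p = 0.128) in the authors' deposited table, while Jag1 (1.19) and Notch2 (1.03) were nearer to 1. Of the 58 other pathway genes 11 (19.0%) had a p under 0.05 in the authors' deposited table, 9 lower and 2 higher in Wnt. Those among them named above were, by the authors' deposited table, Numb (ratio 0.706, p = 0.00298), Maml3 (0.704, p = 0.00549), Dtx3l (0.566, p = 0.00868), Lfng (0.506, p = 0.00993), Dlk1 (2.81, p = 0.0338), Maml1 (0.72, p = 0.0343) and Dll4 (0.316, p = 0.0373). In the authors' deposited table the marker lists moved too. The 6 endothelial markers had ratios of 0.268 to 0.453, 3 of them with a p under 0.05, and the 6 macrophage markers ratios of 0.328 to 1.02, 2 of them lower in Wnt with such a p. The 11 adrenocortical markers had ratios of 1.56 to 3.23, 7 of them higher with a p under 0.05, the 6 chromaffin markers ratios of 1.46 to 5.89, 2 of them higher with such a p, and the 6 fibroblast markers ratios of 1.15 to 1.83, 0 with such a p. Their part in the ratios of Dll4, Notch1, Dlk1 and the other genes was not tested.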

How the data were processed

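Each sample was 250000 cells, of whose total RNA 250 ng was labelled with biotin and run on 1 Affymetrix Mouse Gene 1.1 ST array. The deposited log2 values were made by RMA with oligo, as the submitters' processing notes state, from perfect-match probes only, per the file headers. The version of oligo is one detail not given in the sources used here. The authors also deposited p-values of a paired t-test and fold ratios of BIO over vehicle, per the file headers. For another experiment they deposited fold ratios and p-values of a t-test that the headers do not call paired.

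For each of 20719 symbols the analysis kept the probe set whose mean over the 8 arrays was highest. BIO minus vehicle was tested with limma 3.58.1 in R 4.3.3 (lmFit, eBayes, 8.07 moderated degrees of freedom), two-sided, with the pair from the titles as a block. Deviations of same-numbered arrays correlated at 0.446, 0.578, 0.385 and 0.617, all above 0.1. Vehicle replicate 3, however, correlated slightly more with BIO replicate 4 (0.392) than with BIO replicate 3 (0.385). The procedure was tested on simulated data. That simulation changed few genes and drew the spread of each gene separately. It therefore cannot show how calls behave when many genes change and share spread between arrays, as here. With 4 pairs an exact sign-flip test per gene cannot reach a p under 0.125, so calls rest on limma's shared model of the spread. The 10 members, the gene lists and the rule for named genes were chosen with earlier results of these data known. The rule took all members, up to 3 called genes of each pathway list with the largest difference, 11 fixed pathway genes, and the 5 genes most alike to 2 members. A gene named by this rule is not reported here. Array strip and scan were not examined, and precision is limited by the number of arrays. Promoters were taken from a RefSeq table (GRCm38.p6), matched by symbol, and no build is named for the array annotation. The settings tried were 15, of which the fits on pairs 1 and 2 alone and on pairs 3 and 4 alone were chosen after seeing the data.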

Additional observations from a re-analysis of the deposited data

Results flagged for a closer look

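Heyl in BIO had 1 array apart from the other 3, replicate 3 at 5.14 log2 against 5.02 to 5.03, in a gene that did not pass. It was the 1 such array among 72 groups of 4 arrays examined over the members and the named pathway genes, and chance alone marks about 5% of groups.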

How the results depend on the processing

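The number of members that fell was 5 under 13 of 15 other settings, 6 without pair 4, where Nrarp passed, and 2 by the deposited paired t-test after adjustment, which kept Jag1 and Hes1. No member rose under any of the 15. Leaving out 1 pair at a time gave 5 to 6 members that fell and 0 that rose, 14 to 16 other pathway genes that fell and 8 to 9 that rose, and 2467 to 2913 genes that fell and 2676 to 3122 that rose over all genes. Without the replicate block 5 members still fell, and other pathway genes that fell numbered 10 in place of 19, while over all genes 2329 fell in place of 3236 and 2694 rose in place of 3531. By the deposited paired t-test 10 other pathway genes fell, as did 1890 of all genes, and 2057 of all genes rose. In pairs 1 and 2 alone 12 other pathway genes fell and 3 rose, and of all genes 2090 fell and 2393 rose. In pairs 3 and 4 alone 13 other pathway genes fell and 5 rose, and of all genes 2554 fell and 2546 rose. These fits hold fewer arrays. Of the single-gene differences, 6 for the members changed their side of the threshold and 139 did not, and none changed sign. Among the named pathway genes 8 differences of Dll4 and Hey2, which did not pass, changed sign. That of Dll4 ranged from −0.083 to 0.13 log2 on leaving out 1 pair and was −0.095 in pairs 3 and 4 alone. That of Hey2 ranged from −0.047 to 0.030 on leaving out 1 pair, was 0.058 in pairs 1 and 2 alone and was 0.021 with cyclic loess. The cause of these changes was not tested. With no detection call, which of the dim genes lie above background is unknown.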
